A study of Mus musculus with 12 samples.

Results

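The comparison described here sets the mutant stem and progenitor fraction of mouse bone marrow against the normal progenitor that it would later form. It uses 6 of the 12 libraries of the study, the 3 libraries of T2F3 LSK and the 3 of WT GMP, chosen by the cell type and genotype in their labels. T2F3 stands for the genotype Tet2-/-Flt3ITD, WT for wild type, and the donors of every library were C57BL/6 mice aged 0.35 years. The letters LSK commonly denote marrow cells that lack lineage markers and carry Sca-1 and Kit, and GMP denotes granulocyte-macrophage progenitors. Genotype and cell population both differ between the 2 groups, so their parts in a difference cannot be told apart from these groups alone. WT LSK (3 libraries) are therefore given beside them as the normal starting point, and T2F3 GMP (3 libraries) enter the estimate of the spread. What was asked is how far T2F3 LSK lay toward WT GMP, and which genes still set them apart.

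The LSK fraction holds the blood stem cells and the multipotent progenitors. On the way to GMP, cells silence stem cell, lymphoid and megakaryocyte-erythroid genes and turn on the primary granule proteins of the neutrophil lineage, under transcription factors such as PU.1 and C/EBP alpha. Tet2 oxidises methylcytosine in DNA, and an internal tandem duplication keeps the receptor kinase Flt3 active, which signals in part through STAT5. In mice the pair of lesions is used as a model of acute myeloid leukaemia.

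The 4 genes below encode the classic primary granule proteins, the myeloperoxidase Mpo and the serine proteases neutrophil elastase (Elane), proteinase 3 (Prtn3) and cathepsin G (Ctsg). Their promoters are shown because these are the genes that mark the GMP stage and all 4 were lower in T2F3 LSK than in WT GMP. Each sequence is the 250 bases before the RefSeq start site on GRCm38.p6, 5′ to 3′ on the strand of the gene, matched by symbol, while the counts were made on mm9. The intervals are chr11:87793534-87793783 (+ strand) for Mpo, chr10:79886062-79886311 (+) for Elane, chr10:79879417-79879666 (+) for Prtn3 and chr14:56102575-56102824 (- strand) for Ctsg. Capitals mark GAGGAA, the core of the PU.1 motif, searched on both strands.
Mpo: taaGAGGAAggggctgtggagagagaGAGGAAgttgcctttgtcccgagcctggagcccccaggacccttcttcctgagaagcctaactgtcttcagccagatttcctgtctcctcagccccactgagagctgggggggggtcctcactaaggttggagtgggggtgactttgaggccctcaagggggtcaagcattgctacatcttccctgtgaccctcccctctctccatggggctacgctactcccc
Elane: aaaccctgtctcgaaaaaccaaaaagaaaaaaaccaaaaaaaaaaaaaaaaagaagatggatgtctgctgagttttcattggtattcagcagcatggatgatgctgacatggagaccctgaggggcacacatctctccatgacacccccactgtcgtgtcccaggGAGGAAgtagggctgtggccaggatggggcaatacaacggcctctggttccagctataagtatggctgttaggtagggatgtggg
Prtn3: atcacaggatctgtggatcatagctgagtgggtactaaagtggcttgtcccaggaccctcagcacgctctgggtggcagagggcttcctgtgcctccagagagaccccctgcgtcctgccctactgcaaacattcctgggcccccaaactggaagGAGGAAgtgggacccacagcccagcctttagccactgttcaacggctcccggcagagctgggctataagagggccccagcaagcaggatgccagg
Ctsg: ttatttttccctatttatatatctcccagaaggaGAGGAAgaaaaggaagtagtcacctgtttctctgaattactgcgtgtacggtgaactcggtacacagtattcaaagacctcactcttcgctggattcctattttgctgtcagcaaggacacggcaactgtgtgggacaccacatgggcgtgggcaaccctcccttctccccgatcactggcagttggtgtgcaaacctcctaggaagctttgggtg

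GAGGAA stood in the Mpo window at 2 places, with its far end 247 and 224 bases before the start, and once each in those of Elane (85 bases), Prtn3 (95 bases) and Ctsg (216 bases). Of the 18 genes of the primary granule list, 15 had a promoter in the table and 9 of these held the motif at 1 or more start sites. Of all 32851 promoters, counted singly, 23.3% held it. The units differ, because a gene with several start sites has more chances of a match than a single promoter. The C/EBP half-site pair TTGCNNAA was in none of the 4 windows (9.56% of all promoters), and the STAT motif TTCNNNGAA was in that of Ctsg alone (7.02% of all). Among the 15 list genes, counted by gene as above, TTCNNNGAA was in 4 (Alas1, Ctsc, Ctsg and Nkg7) and TTGCNNAA in 2 (Clec12a and Plac8). A match describes the letters in the window and is not a measured binding site.

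Total counts were 15978229, 21365867 and 20131393 in T2F3 LSK replicates 1, 2 and 3 and 22315312, 21406128 and 17409167 in WT GMP. Genes of small noncoding RNAs, with unnamed clones, took 9.769 to 32.24% of the counts of T2F3 LSK and 9.175 to 28.66% of those of WT GMP, most in replicate 1 of each group. Replicate 1 also had counts in the fewest entries of the table, 80.81% in T2F3 LSK and 71.15% in WT GMP, against 83.96 to 89.78% in the other 4 libraries. The labels also carry a letter code of unstated meaning. T2F3 LSK replicates 1 and 3 share it with WT GMP replicate 2, and the other 3 libraries have codes of their own among these 6. Levels below are CPM, the usual depth-scaled counts taken with the TMM library size, and a gene passed when its adjusted p in edgeR's quasi-likelihood test was under 0.05.

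The sort was checked on the genes of its surface markers, which are no finding between sorted groups. Ly6a, the gene of Sca-1, was at 46.6, 24.7 and 11.3 CPM in T2F3 LSK and at 3.57, 1.52 and 1.57 in WT GMP, and the groups did not overlap. This fits the usual LSK gate, although the protocol in the labels writes Sca-1 as negative for LSK too. Fcgr3, an Fc gamma receptor that defines the GMP gate, was at 3.65, 3.71 and 5.56 CPM in T2F3 LSK and at 160, 115 and 94.5 in WT GMP. Kit and Cd34, on which both populations or GMP are gated, differed less, by -0.76 ± 0.21 and 0.80 ± 0.21 on the log2 scale (SE, n = 3 per group, adjusted p = 0.0443 and 0.0399). Both of these calls were lost in 10 of the 12 fits that left out 1 library, at adjusted p of up to 0.13 for Kit and 0.157 for Cd34, and with the letter code as a term in the fit (0.236 and 0.202). Tet2 was at 42.0, 89.1 and 40.9 CPM in T2F3 LSK and at 107, 138 and 112 in WT GMP, which checks no label, because a deletion of some exons need not show in the sum over the gene.

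By the median over pairs of libraries, T2F3 LSK lay nearer to WT GMP than WT LSK did. The distance between 2 libraries was taken as the median absolute difference in log2 CPM over 11084 genes with a mean of at least 5 CPM. For T2F3 LSK against WT GMP it had a median of 0.468 over the 9 pairs of libraries (range 0.374 to 0.657). For WT LSK against WT GMP the median was 0.677 (range 0.386 to 0.819), and for T2F3 LSK against WT LSK 0.511 (range 0.379 to 0.771). These ranges overlap widely. Replicates differed by a median of 0.407 (range 0.271 to 0.421) within T2F3 LSK and 0.445 (range 0.297 to 0.532) within WT GMP. By this measure T2F3 LSK were thus little farther from WT GMP libraries than those were from each other. In both groups the 2 larger of these distances were those to replicate 1. WT LSK replicate 1 also lay apart, at 0.479 and 0.52 from the other WT LSK libraries, which differed by 0.262. Among replicates 2 and 3 only, WT LSK lay 0.386 to 0.494 from WT GMP. T2F3 LSK then lay 0.374 to 0.435 from WT GMP and 0.379 to 0.431 from WT LSK. Without replicate 1 these ranges overlap, and T2F3 LSK were about as far from WT LSK as from WT GMP. The nearest group to T2F3 LSK was T2F3 GMP, at a median of 0.351 (range 0.258 to 0.441).

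**Figure D1:**
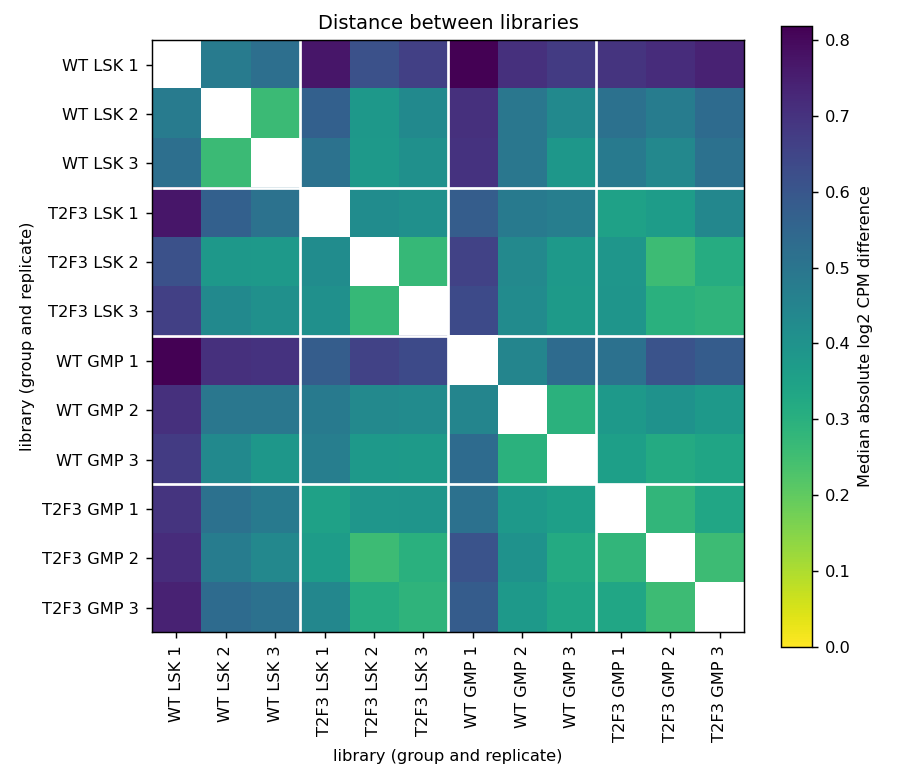
Distance between every pair of the 12 libraries, as the median absolute log2 CPM difference over 11084 genes, with groups parted by white lines. T2F3 LSK and WT GMP lie 0.374 to 0.657 apart, WT GMP replicate 1 being the farthest from T2F3 LSK, and T2F3 LSK and T2F3 GMP 0.258 to 0.441.

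Of 16042 genes tested, 722 were higher in T2F3 LSK than in WT GMP (4.5%) and 465 lower (2.9%), 1187 in all (7.4%), of which 1040 differed at least 2-fold. The 3 libraries of one group lay wholly above or below those of the other for 25.6% of the genes tested. Between WT LSK and WT GMP 2100 genes passed (13.1%), and between T2F3 LSK and WT LSK 834 (5.2%). The 3 counts share libraries and the differences between them were not tested. By their numbers, WT LSK and WT GMP may also come from the same animals, a pairing that the fit ignored. Leaving out T2F3 LSK replicate 2 lowered the counts to 387 higher and 244 lower, and leaving out WT GMP replicate 2 to 321 and 249. The lower genes were also fewer without T2F3 LSK replicate 1 (292), T2F3 LSK replicate 3 (279) or WT GMP replicate 1 (263). With the letter code as a term 145 and 93 genes passed, and between T2F3 LSK and WT LSK 18. For the genes described below, the adjusted p with the code is given beside a call that was lost with it.

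**Figure D2:**
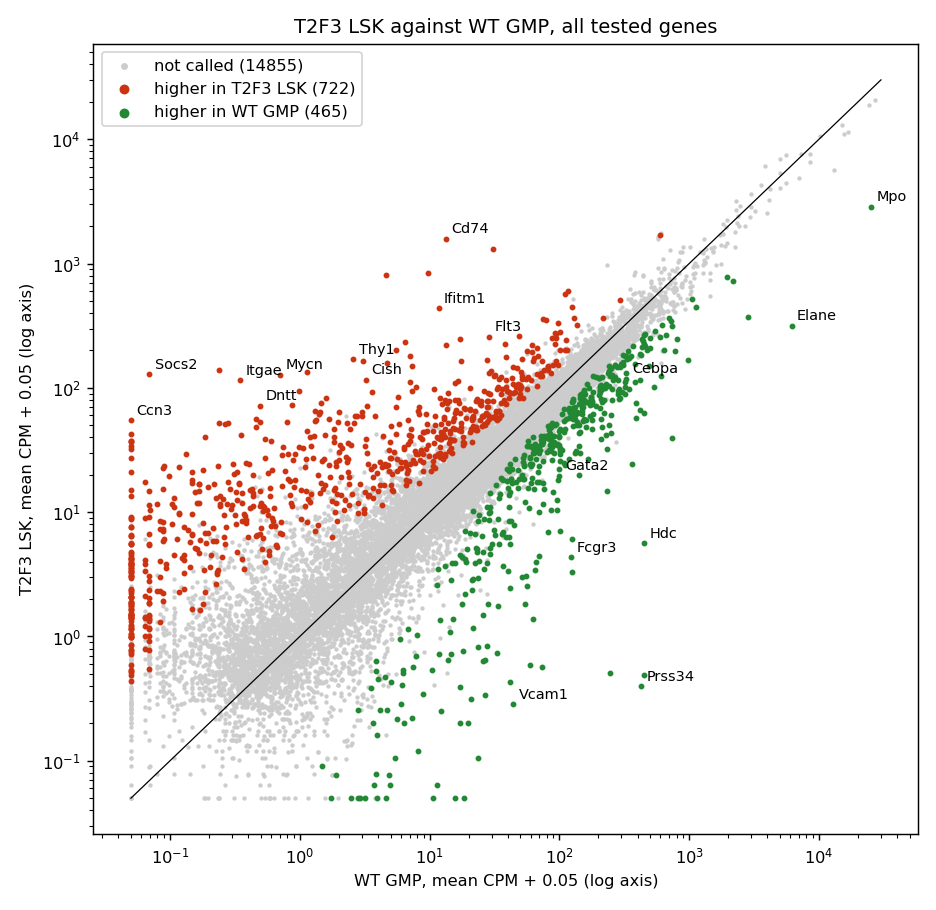
Mean CPM (plus 0.05, log axes) of T2F3 LSK against WT GMP for 16042 tested genes, 1 point per gene, with the 722 higher genes in red, the 465 lower in green and the line of equal level in black. Socs2 and Ccn3 stand high with almost no counts in WT GMP, and the basophil protease gene Prss34 and Hdc stand far below the line.

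The genes of the normal step were taken from the WT libraries alone, as those that passed between WT LSK and WT GMP with at least a 2-fold difference. Because WT GMP and WT LSK both entered the choice, which sets WT LSK far from WT GMP, the values describe a position and carry no test. The 668 genes higher in WT GMP lay at a median of -1.72 on the log2 scale in WT LSK and -0.95 in T2F3 LSK, with WT GMP at 0. By library, the median was -0.80, -0.97 and -1.06 in T2F3 LSK replicates 1, 2 and 3, and -1.89, -1.64 and -1.68 in WT LSK. The 1048 genes higher in WT LSK lay at a median of 2.60 in WT LSK and 1.56 in T2F3 LSK (1.17, 1.65 and 1.59 by library). No T2F3 LSK library reached the WT GMP level in either set, and the order relative to WT LSK is not support for a shift, since the choice of genes pushes WT LSK outward. T2F3 GMP libraries lay at -0.34, -0.58 and -0.18 for the first set and at 0.32, 0.57 and 0.45 for the second.

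**Figure D3:**
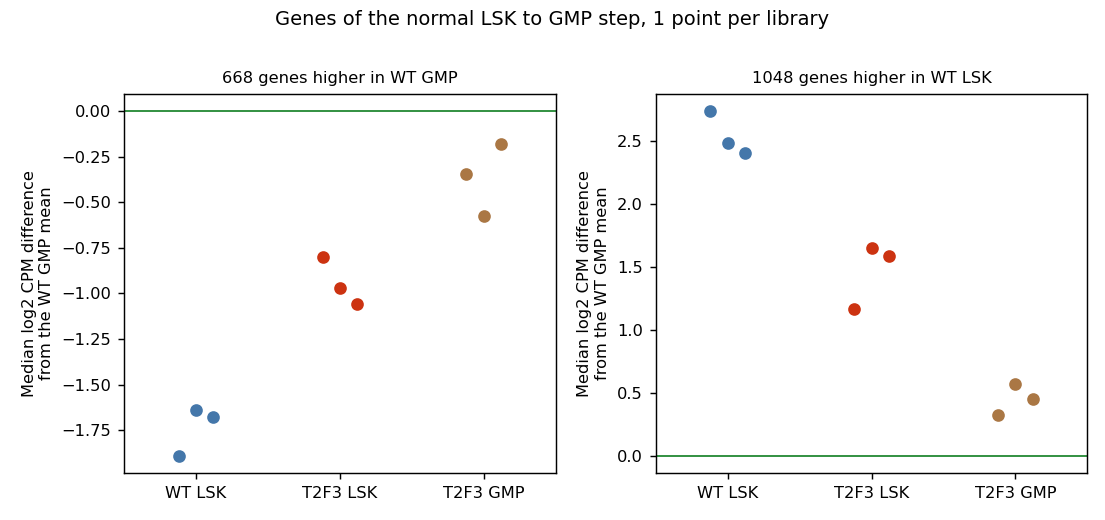
Median log2 CPM difference from the WT GMP mean (green line at 0) over the 668 genes higher in WT GMP (left) and the 1048 higher in WT LSK (right), 1 point per library. T2F3 LSK sit at -0.80 to -1.06 and 1.17 to 1.65, between WT LSK and T2F3 GMP in both panels.

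The primary granule genes, by which GMP are best known, were lower in T2F3 LSK than in WT GMP for 10 of the 18 tested. No member was higher, and the list had a median log2 difference of -1.81 against 0.04 over all genes tested. Mpo (ENSMUSG00000009350) was at 3160, 2650 and 2810 CPM in T2F3 LSK and at 35200, 25200 and 15200 in WT GMP. The groups lay far apart, 8.76-fold (log2 difference -3.13 ± 0.45, adjusted p = 0.00153), and WT LSK, at 2340, 2020 and 1480 CPM, were close to the mutant level. Elane (ENSMUSG00000020125) was at 410, 163 and 372 CPM against 10100, 5650 and 2760, or 19.6-fold lower (log2 difference -4.29 ± 0.69, adjusted p = 0.00301). Alas1, the first enzyme of the haem that Mpo needs, was at 170, 148 and 182 CPM against 1360, 764 and 833 (5.91-fold lower, adjusted p = 0.00197). Prtn3 was at 609, 256 and 259 CPM against 5020, 2230 and 1280, with no overlap (7.59-fold lower, adjusted p = 0.0108). Without WT GMP replicate 1 that fold was 4.69, without T2F3 LSK replicate 2 the adjusted p was 0.056, and with the code as a term it was 0.117.

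Against WT LSK the same list had 7 members higher in T2F3 LSK and none lower (2.76% of all genes tested were higher and 2.44% lower), with a median log2 difference of 1.19. Clec12a, an inhibitory lectin receptor of myeloid cells, went from 31.8, 19.9 and 33.3 CPM in WT LSK to 171, 160 and 114 in T2F3 LSK, a 5.24-fold rise (adjusted p = 0.0011). In WT GMP it was at 326, 187 and 233 CPM, above all T2F3 LSK libraries, and that difference did not pass (log2 difference -0.74 ± 0.27, adjusted p = 0.123). Ctsg rose 6.23-fold from 99.8, 132 and 120 CPM in WT LSK to 1130, 426 and 631 in T2F3 LSK (adjusted p = 0.00471, and 0.0968 with the code as a term). It stayed below the 3310, 1820 and 1350 CPM of WT GMP (2.96-fold, adjusted p = 0.0303). That call was lost without T2F3 LSK replicate 2 (0.113), T2F3 LSK replicate 3 (0.101), WT GMP replicate 1 (0.118) or WT GMP replicate 2 (0.0582), and with the code (0.185). The count of 10 lower members was 4 without T2F3 LSK replicate 2, 5 without WT GMP replicate 1 and 3 with the code as a term. WT GMP replicate 1 had the highest summed level of the list, 60300 CPM against 39140 and 24390 in the others and 4873 to 7542 in T2F3 LSK.

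**Figure D4:**
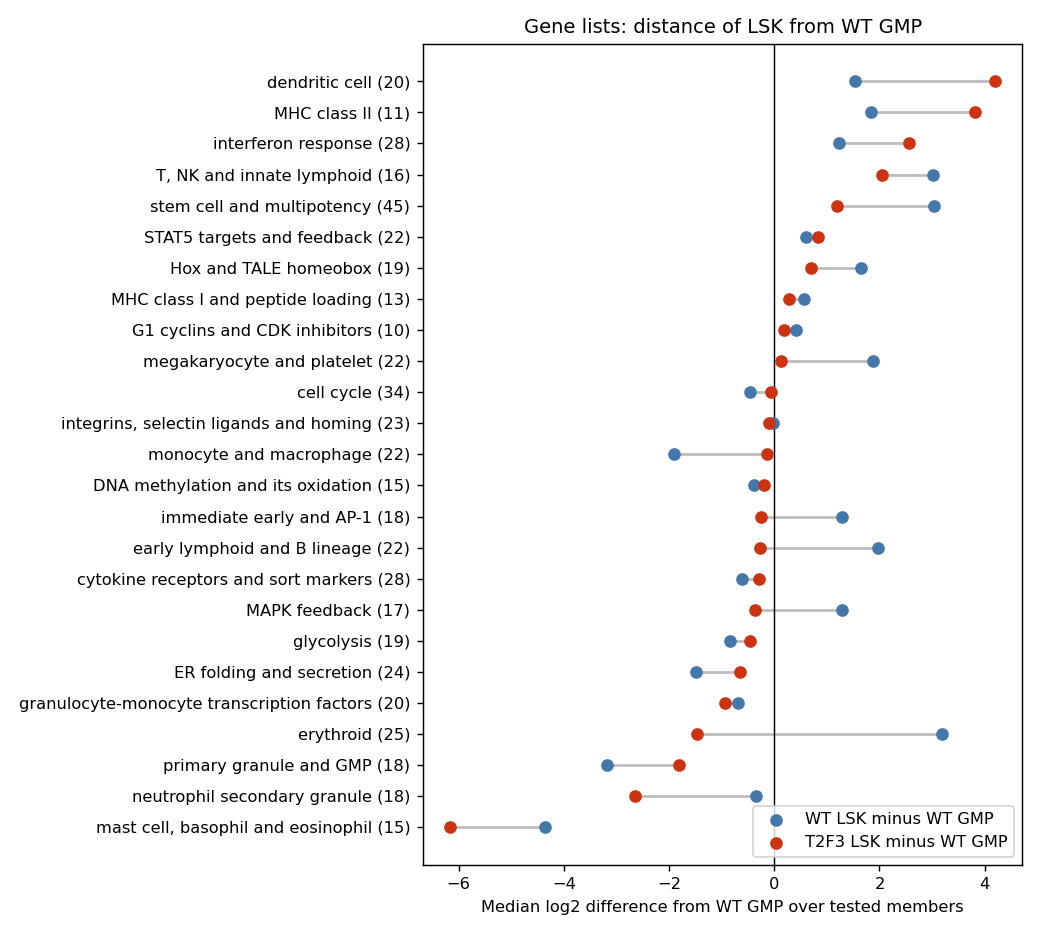
Median log2 difference from WT GMP over the tested members of each gene list (number in brackets), for WT LSK in blue and T2F3 LSK in red, with WT GMP at the line at 0. The primary granule list moves from -3.17 to -1.81, the stem cell list from 3.03 to 1.20, and the mast cell, basophil and eosinophil list from -4.35 to -6.16.

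Transcription factors of the granulocyte-monocyte lineage were split. Of 20 tested, 5 were lower in T2F3 LSK than in WT GMP and 3 higher, with a median log2 difference of -0.94. Cebpa, which GMP formation requires, was at 133, 119 and 102 CPM in T2F3 LSK and at 308, 376 and 300 in WT GMP (2.78-fold lower, log2 difference -1.47 ± 0.25, adjusted p = 0.00364). WT LSK had 137, 84.8 and 92.0 CPM, which overlaps with the mutant libraries. Cebpd, a related factor of later granulocytes, was at 4.33, 3.55 and 1.98 CPM against 64.6, 43.9 and 12.4 (12.3-fold lower, adjusted p = 0.00416). Gfi1, a repressor needed for neutrophil formation, was at 23, 16.7 and 39.7 CPM against 182, 92.5 and 78.9 (4.44-fold lower, adjusted p = 0.00986). That call was lost without both T2F3 replicate 1 libraries (0.06), without all 4 replicate 1 libraries (0.111) and with the code (0.0793). Myb, a factor of dividing progenitors, was at 287, 279 and 382 CPM against 658, 762 and 777 (2.32-fold lower, adjusted p = 0.00543, and 0.0694 with the code). The 3 higher members were 1 without T2F3 LSK replicate 1 or 2 or WT GMP replicate 1 or 2, and 0 with the code.

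Receptor genes fell on both sides. Of 28 receptor and sort marker genes, 7 were higher in T2F3 LSK and 5 lower, and Ly6a, Fcgr3, Kit and Cd34 among these are gate genes. The fold of Ly6a was 12.4, and 8.1 without T2F3 LSK replicate 1, with an adjusted p of 0.0531 with the code. Flt3 was at 257, 330 and 188 CPM in T2F3 LSK against 20.8, 14.4 and 50.8 in WT GMP (9.01-fold higher, log2 difference 3.17 ± 0.45, adjusted p = 0.00148). WT LSK had 433, 374 and 463 CPM, so the mutant fraction kept Flt3 well above the GMP level, and the fold was 14.6 without WT GMP replicate 3. Il18r1, a receptor chain for interleukin 18, was at 30.8, 29.8 and 64.2 CPM against 0, 0.0868 and 0.814 (140-fold higher, adjusted p = 0.000907). Its fold was 751 without WT GMP replicate 3.

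On the other side, Csf3r, the receptor of the granulocyte growth factor G-CSF, was at 38.4, 52.2 and 78.7 CPM in T2F3 LSK. WT GMP had 167, 136 and 160 CPM and WT LSK 169, 175 and 159, so the mutant libraries lay below both normal populations (2.73-fold below WT GMP, adjusted p = 0.00416, and 0.0753 with the code). Against WT LSK the adjusted p was 0.00514, and 0.143 with the code. Ifngr1, a chain of the interferon gamma receptor, was at 118, 130 and 87.9 CPM against 481, 365 and 294 (3.39-fold lower, adjusted p = 0.00465). The 5 lower receptor genes were 3 when T2F3 LSK replicate 3 or WT GMP replicate 2 was left out. With the code as a term 3 were higher and 2 lower.

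WT GMP held a strong program of basophils, mast cells and eosinophils that was almost missing from T2F3 LSK. Of 15 tested members of that list, 11 were lower in T2F3 LSK and none was higher, with a median log2 difference of -6.16, or -5.25 with the 2 members that had no count in T2F3 LSK put at their bound. Prss34 (ENSMUSG00000056399), a protease of basophils and mast cells, was at 0, 0.709 and 0.329 CPM in T2F3 LSK and at 372, 381 and 527 in WT GMP, or 1080-fold lower (adjusted p = 1.46e-05). Without T2F3 LSK replicate 2 that fold was 2020. Hdc, which makes histamine, was at 6.53, 5.01 and 5.23 CPM against 684, 317 and 347 (80.6-fold lower, log2 difference -6.33 ± 0.43, adjusted p = 1.03e-05). Ms4a2, the beta chain of the IgE receptor, was at 0.836, 0.542 and 0.247 CPM against 53.3, 47.3 and 77.0 (113-fold lower, adjusted p = 0.000259). The alpha chain gene Fcer1a had no count in any T2F3 LSK library and 25, 11.4 and 18.3 CPM in WT GMP. Taken against a floor of 3 counts per library it was at least 115-fold lower (adjusted p = 0.00374, and 0.0569 with the code).

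The eosinophil granule genes followed. Prg2, the major basic protein, was at 0, 0.959 and 0.37 CPM in T2F3 LSK against 342, 321 and 678 in WT GMP (892-fold lower, adjusted p = 0.00196). Epx, the eosinophil peroxidase, was at 0, 1.38 and 0 CPM against 209, 262 and 264 (476-fold lower, adjusted p = 0.00437). In both genes T2F3 LSK replicate 2 carried most of the remaining counts, and without it the fold was 1900 for Prg2, while Epx had no count left. Without T2F3 LSK replicate 3 the fold of Epx was 308. Gata2, a factor of stem cells and of the mast cell and basophil lineage, was at 16.4, 13.9 and 28.5 CPM against 69.2, 95.9 and 135 (5.09-fold lower, adjusted p = 0.000801). It was higher still in WT LSK, at 146, 169 and 168 CPM, so T2F3 LSK lay below both normal populations (8.2-fold below WT LSK, adjusted p = 0.000364).

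Mcpt8, a basophil protease, differed in its pattern from the rest of the list. It was at 23.9, 15.3 and 32.1 CPM in T2F3 LSK, above the 1.45, 4.09 and 7.39 of WT LSK (5.52-fold, adjusted p = 0.0105, and 0.0896 with the code, or 8.35-fold without WT LSK replicate 3). It stayed below the 102, 119 and 111 of WT GMP (4.67-fold, adjusted p = 0.00799). The summed level of the 17 measured members was 47.43 to 74.12 CPM in T2F3 LSK, 186.9 to 256.9 in WT LSK, 1710 to 2393 in WT GMP and 152.9 to 208.7 in T2F3 GMP. Fewer cells of a type and less RNA per cell cannot be told apart in sorted bulk samples, here as in all lists. The 11 lower members were 10 to 12 over the fits that left out 1 library and 8 with the code as a term. Outside the list, Vcam1, an adhesion molecule, was at 0.076, 0.584 and 0.0412 CPM against 85.3, 17.8 and 28.6 (172-fold lower, adjusted p = 0.00111). That fold was 721 without T2F3 LSK replicate 2 and 90.9 without WT GMP replicate 1.

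Stem cell genes went the other way, and a part of them was expressed above WT GMP. Ifitm1 and Thy1, described below, are among these and stood above WT LSK too. Of 45 tested members, 17 were higher in T2F3 LSK and 3 lower, with a median log2 difference of 1.20. In WT LSK against WT GMP 32 were higher with a median of 3.03 (7.37% of all genes tested were higher and 5.72% lower in that comparison). The gate genes Ly6a and Cd34 are among both the 17 and the 32, and their calls are no finding. Mycn (ENSMUSG00000037169), a Myc family factor of early progenitors, was at 99.7, 96.0 and 188 CPM in T2F3 LSK and at 0, 0.564 and 1.40 in WT GMP (195-fold higher, adjusted p = 0.000237). WT LSK had 56.8, 71.4 and 91.7 CPM, each below all 3 mutant libraries, and that difference did not pass (adjusted p = 0.459). Fgd5, a stem cell marker, was at 11.0, 20.4 and 31.3 CPM against 0, 0.477 and 0.349 (71.7-fold higher, adjusted p = 0.00114). The stem cell surface genes Procr and Robo4 were 23.7-fold and 34-fold higher than in WT GMP (adjusted p = 0.00585 and 0.0049). Hmga2, a chromatin protein of fetal-type stem cells, was at 44.4, 71.2 and 76.9 CPM against 0.119, 2.47 and 3.32 (32.3-fold higher, adjusted p = 0.00169).

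A part of the stem cell list had come down from the normal LSK level and stopped above that of GMP. Hlf, a factor of long-lived stem cells, had 358, 266 and 212 CPM in WT LSK, with 30.4, 33.4 and 52.8 in T2F3 LSK and 13.2, 8.98 and 13.8 in WT GMP. None of the 3 groups overlapped. T2F3 LSK lay 7.17-fold below WT LSK (adjusted p = 0.000958, and 0.0681 with the code) and 3.24-fold above WT GMP (adjusted p = 0.00671, and 0.0921 with the code). Meis1, a homeobox partner of Hox proteins, was at 363, 282 and 245 CPM in normal LSK, 63.9, 88.7 and 139 in T2F3 LSK and 42.8, 24.7 and 41.6 in WT GMP (2.67-fold above WT GMP, adjusted p = 0.0116). The Meis1 call against WT GMP was lost without WT GMP replicate 2 (0.0572) and with the code (0.114). Against WT LSK Meis1 was 3.06-fold lower (adjusted p = 0.0112). That call was lost without both T2F3 replicate 1 libraries (0.0718), without all 4 replicate 1 libraries (0.0846) and with the code (0.215). The 17 higher members were 11 without WT GMP replicate 2 and 7 with the code as a term, and the 3 lower members were 1 without T2F3 LSK replicate 2 and with the code. Without WT GMP replicate 3 the fold of Mycn was 402. Without WT GMP replicate 2 it was 115 for Fgd5 and 68.8 for Procr.

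**Figure D5:**
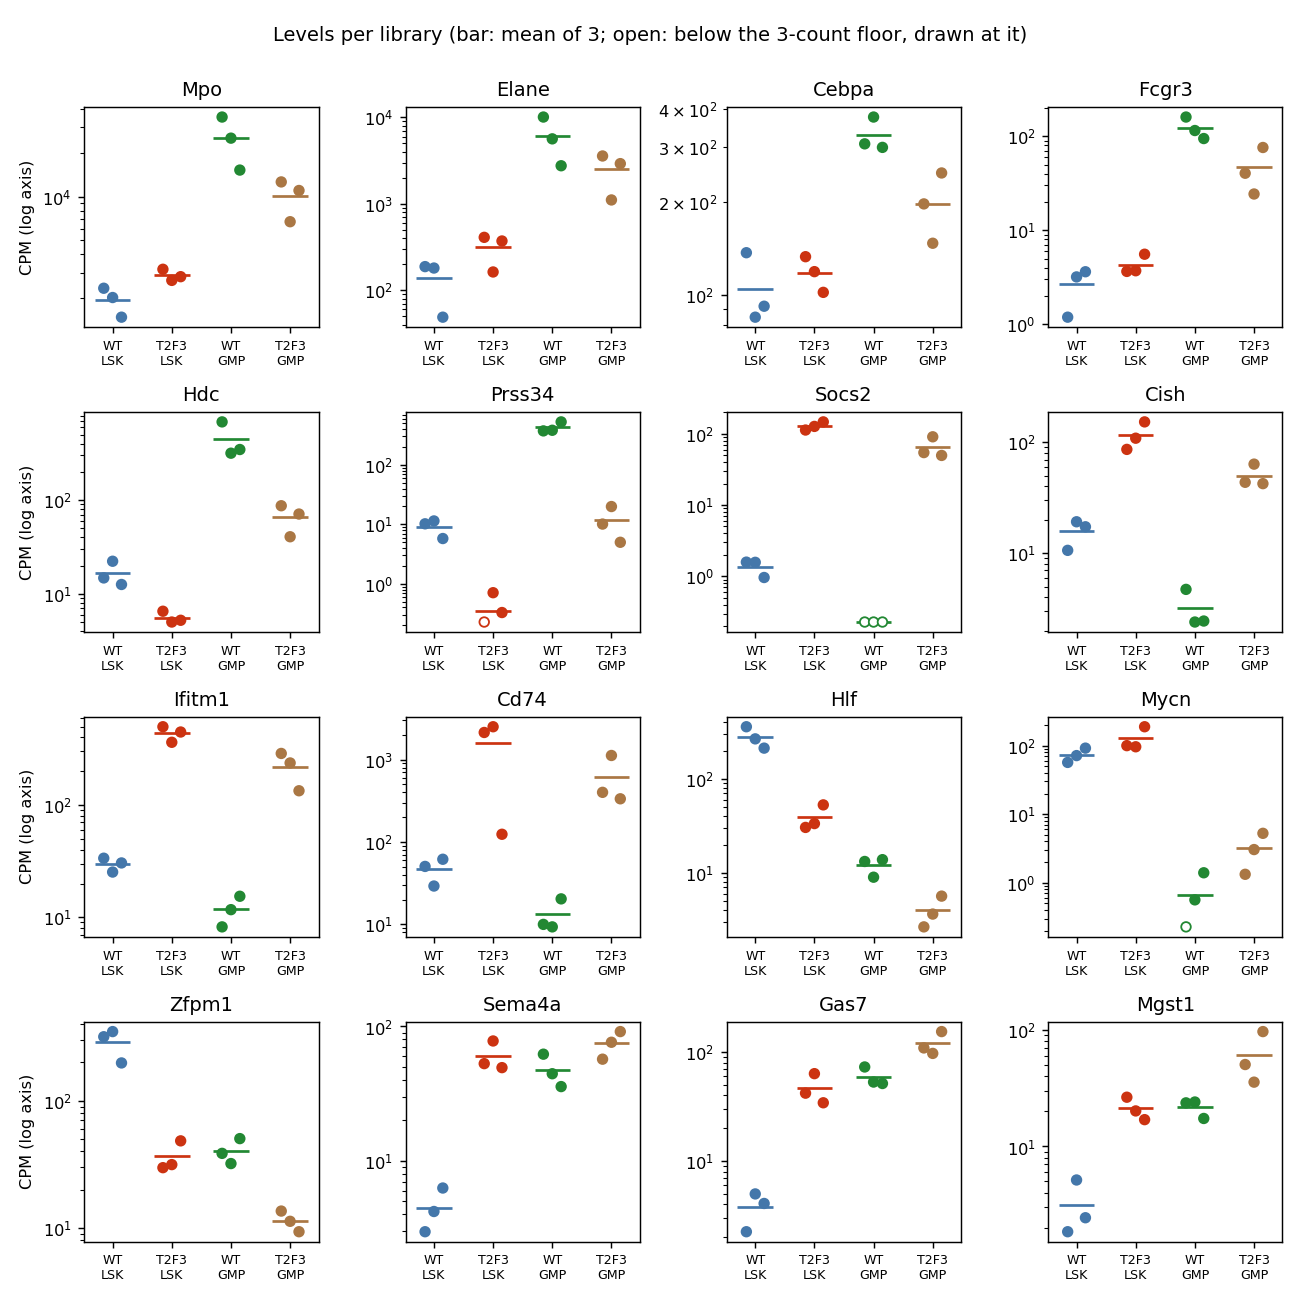
CPM of 16 genes in each library (log axes, 3 points per group, bar at the mean, open points below the 3-count floor and drawn at it). Mpo, Elane, Cebpa, Fcgr3, Hdc and Prss34 are far below WT GMP in T2F3 LSK, Socs2, Cish, Ifitm1 and Cd74 exceed both WT populations, and Zfpm1, Sema4a, Gas7 and Mgst1 overlap with WT GMP.

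Early lymphoid genes were near the WT GMP level, while some T cell genes were above it. Of 22 genes of the early lymphoid and B lineage list 2 were higher than in WT GMP and none lower (median log2 difference -0.27), while 7 were lower than in WT LSK. Summed over its 26 measured members, the level was 1199 to 1651 CPM in T2F3 LSK, 1176 to 1267 in WT GMP and 2274 to 5343 in WT LSK. Dntt, the polymerase that adds bases at receptor gene joints, was at 61.2, 41.6 and 113 CPM in T2F3 LSK and at 0, 0.868 and 0.465 in WT GMP (150-fold higher, adjusted p = 0.000237, and 298-fold without WT GMP replicate 2). WT LSK had 523, 192 and 439 CPM, above every mutant library. Cd27, a receptor of multipotent and lymphoid cells, was the other, at 121, 114 and 114 CPM against 25.7, 38.7 and 52.0 (3-fold higher, adjusted p = 0.00318, and 0.0668 with the code). Of 16 genes of the T, NK and innate lymphoid list 6 were higher and 1 lower, with a median of 2.04, or 1.54 with a member that had no count in WT GMP at its bound. Lck, a kinase of T cell receptor signalling, was at 34.4, 23.4 and 62.1 CPM against 0.0596, 1.26 and 2.15 (34.3-fold higher, adjusted p = 0.00246, and 57.4-fold without WT GMP replicate 3). WT LSK had 33.3, 20.9 and 30.2 CPM, which overlaps with the mutant libraries. T2F3 LSK replicate 3 had the highest summed level of this list, 488.6 CPM against 234.1 and 209.6 in replicates 1 and 2 and 103 to 135 in WT GMP.

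Several genes were above both normal populations, so they lie on neither end of the normal step. Socs2 (ENSMUSG00000020027), a feedback inhibitor of cytokine receptors that STAT5 turns on, was at 113, 127 and 147 CPM in T2F3 LSK. Its level was not particular to them, since T2F3 GMP had 54.5, 90.8 and 49.7 CPM. WT GMP had 1 count over its 3 libraries, so that the counts stood 7520 to 1 per equal depth, within 1350 and 297000 by a 95% counting interval (adjusted p = 2.08e-07), and WT LSK had 1.58, 1.57 and 0.961 CPM. Cish, a relative of Socs2, was at 86.4, 109 and 153 CPM against 4.71, 2.39 and 2.44 in WT GMP (36.6-fold higher, log2 difference 5.19 ± 0.39, adjusted p = 1.46e-05). It was also 7.4-fold above the 10.6, 19.2 and 17.3 CPM of WT LSK (adjusted p = 0.00117, and 0.0543 with the code). Pim1, a survival kinase, was at 485, 588 and 628 CPM against 104, 112 and 116 (5.12-fold higher, adjusted p = 7e-05). Its level in WT LSK, 328, 372 and 354 CPM, was below every mutant library and that difference did not pass (adjusted p = 0.0625). Of 22 genes of the STAT5 list 5 were higher than in WT GMP and none lower, with a median log2 difference of 0.83, and 5 or 6 were higher over the fits that left out 1 library.

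Other genes above both WT groups had various roles, and most of those given here were high in T2F3 GMP too. There Ccn3 was at 34.8, 36.9 and 27.6 CPM, Ifitm1 at 288, 237 and 134, Thy1 at 42.6, 29.9 and 114 and Cd48 at 172, 153 and 116. Gdf10 and Ncam2 were low in T2F3 GMP, at 0.89 to 5.13 and 0.38 to 1.08 CPM. Ccn3, a secreted matricellular protein, was at 53.3, 47.2 and 64.2 CPM in T2F3 LSK with no count in WT GMP (at least 341-fold higher, adjusted p = 1.28e-05). Gdf10, a secreted relative of the bone morphogenetic proteins, was at 51.6, 56.1 and 19.9 CPM with no count in WT GMP (at least 264-fold higher, adjusted p = 0.00111) or in WT LSK. Ncam2, a neural adhesion molecule, was at 24.8, 22.4 and 65.4 CPM with no count in WT GMP (at least 233-fold higher, adjusted p = 0.000128). Ifitm1, a membrane protein induced by interferon, was at 498, 362 and 447 CPM against 8.22, 11.7 and 15.4 in WT GMP and 33.6, 25.3 and 30.5 in WT LSK (37-fold and 14.6-fold higher, adjusted p = 1.03e-05 and 9.05e-05). Thy1, a surface protein of T cells and of some progenitors, was at 137, 107 and 267 CPM against 2.26, 1.91 and 3.43 in WT GMP (67.4-fold higher, adjusted p = 0.000126). Against WT LSK, Gdf10, Ncam2 and Thy1 did not pass with the code as a term (adjusted p = 0.0592, 0.0519 and 0.0696). Cd48, a surface protein that stem cells lack and progenitors carry, was at 289, 180 and 286 CPM in T2F3 LSK, against 76.8 to 94.9 in WT GMP and 66.0 to 93.2 in WT LSK. It was 2.86-fold above WT GMP (adjusted p = 0.00231) and 3.07-fold above WT LSK (adjusted p = 0.00343, and 0.0896 with the code).

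MHC class II antigen presentation genes stood above WT GMP in T2F3 LSK, very unevenly among the libraries. Of 11 MHC class II genes 8 were higher and none lower, with a median log2 difference of 3.81. Cd74, the invariant chain, was at 2130, 2500 and 124 CPM in T2F3 LSK and at 10.0, 9.33 and 20.4 in WT GMP (120-fold higher, log2 difference 6.91 ± 1.00, adjusted p = 0.00163). Replicate 3 lay far below replicates 1 and 2 and still above all WT GMP libraries. Summed over the 11 genes, the level was 7186, 7433 and 512.1 CPM in T2F3 LSK, 144.4 to 226.4 in WT GMP and 304.3 to 564.7 in WT LSK. T2F3 LSK replicate 3 was thus within the range of WT LSK. The T2F3 GMP libraries, at 1567, 3456 and 1012 CPM, were above both WT populations. Ciita, the master regulator of these genes, was at 123, 266 and 12.9 CPM against 1.37, 0.174 and 1.74 (125-fold higher, adjusted p = 0.0032, and 63-fold without T2F3 LSK replicate 2). H2-Eb1 was at 1240, 1130 and 53.4 CPM against 6.49, 1.95 and 5.18 (179-fold higher, adjusted p = 0.00205).

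Of 20 dendritic cell genes 8 were higher and none lower, with a median log2 difference of 4.20, or 3.75 with a member that had no count in WT GMP at its bound. Id2, a factor of dendritic and innate lymphoid cells, was at 191, 265 and 36.3 CPM in T2F3 LSK against 0.119, 5.29 and 3.72 in WT GMP (52.9-fold higher, adjusted p = 0.0101). That call was lost without all 4 replicate 1 libraries (0.0535) and with the code (0.101), and its fold was 84.6 without WT GMP replicate 2. Itgae, an integrin of cross-presenting dendritic cells and of some lymphocytes, was at 146, 185 and 14.3 CPM against 0, 0.13 and 0.756 (393-fold higher, adjusted p = 0.00275). Its fold was 1430 without WT GMP replicate 3, and its adjusted p was 0.0564 with the code. The summed level of the 21 measured dendritic cell genes was 2258, 2991 and 758 CPM in T2F3 LSK, 720.4 to 893.9 in WT GMP and 813.3 to 1163 in WT LSK. T2F3 GMP had 1650, 2051 and 1537 CPM. None of the MHC class II genes was without counts in WT GMP, where 4 to 11 of the dendritic cell genes were. The part of cells of the dendritic lineage in these values was not tested. The 8 dendritic cell genes were 5 without T2F3 LSK replicate 2 or WT GMP replicate 1, 3 without WT GMP replicate 2 and 1 with the code. The 8 class II genes were 5 without T2F3 LSK replicate 2 or WT GMP replicate 2, and 3 with the code.

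Interferon response genes were higher in T2F3 LSK for 9 of 28, and none was lower, with a median log2 difference of 2.56. Igtp, a GTPase induced by interferon, was at 88.2, 78.1 and 80.2 CPM against 5.96, 8.33 and 21.8 in WT GMP (6.84-fold higher, adjusted p = 0.00144, and 11.5-fold without WT GMP replicate 3). Gbp2, of a related family, was at 23.6, 29.8 and 17.1 CPM against 4.89, 5.64 and 8.96 (3.62-fold higher, adjusted p = 0.00589, and 0.0586 with the code). WT LSK had 28.5, 20.2 and 24.2 CPM of Gbp2, which overlaps with the mutant libraries. The summed level of the list was 1113, 1347 and 447.1 CPM in T2F3 LSK, 368.8 to 401 in WT GMP and 701.5 to 767.7 in WT LSK. Replicate 3, which also stands apart in the class II, dendritic cell and monocyte lists, was thus near WT GMP and below all WT LSK libraries. The 9 higher members were 4 without T2F3 LSK replicate 1, WT GMP replicate 1 or WT GMP replicate 3, 2 without T2F3 LSK replicate 2, 3 without WT GMP replicate 2 and 1 with the code.

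Some genes of the normal step stood at the GMP level in T2F3 LSK. They were chosen for a difference from WT GMP of at most 0.5 on the log2 scale, so their closeness is a description. Sema4a, a membrane-bound semaphorin of immune cells, had 2.97, 4.20 and 6.28 CPM in WT LSK, 52.9, 78.0 and 49.4 in T2F3 LSK and 62.2, 44.5 and 35.7 in WT GMP. It rose 13.4-fold over WT LSK (log2 change 3.75, adjusted p = 0.000184). The difference from WT GMP was 0.34 with a 95% interval of -0.32 to 1.00. Gas7, a protein of the actin skeleton, had 2.24, 4.98 and 4.07 CPM in WT LSK, 41.9, 63.3 and 34.2 in T2F3 LSK and 72.9, 53.0 and 51.4 in WT GMP (12.3-fold above WT LSK, adjusted p = 0.000255). Mgst1, a detoxifying enzyme, was at 26.5, 20.2 and 17.0 CPM in T2F3 LSK and 23.7, 24.1 and 17.4 in WT GMP. It lay 6.69-fold above the 1.85, 5.15 and 2.44 of WT LSK (adjusted p = 0.00594, 0.073 without all 4 replicate 1 libraries and 0.0696 with the code).

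In the other direction, genes of stem cells and of the megakaryocyte-erythroid branch had fallen to the GMP level. Zfpm1, the partner of Gata1 also called Fog1, had 318, 349 and 198 CPM in WT LSK, 29.8, 31.5 and 48.4 in T2F3 LSK and 38.6, 32.1 and 50.4 in WT GMP. It fell 7.87-fold against WT LSK (adjusted p = 0.000257) and overlapped with WT GMP (log2 difference -0.14, 95% interval -0.72 to 0.45). Mmrn1, a protein of platelets and stem cells, fell from 64.9, 60.8 and 43.8 CPM in WT LSK to 0.912, 2.09 and 3.58 in T2F3 LSK (25.3-fold lower, adjusted p = 0.00282, and 0.108 with the code). WT GMP had 1.91, 0.998 and 3.14 CPM of it. Aqp1, the water channel of red cells, had 112, 83.9 and 116 CPM in WT LSK, 7.06, 5.46 and 5.76 in T2F3 LSK and 3.75, 9.15 and 11.3 in WT GMP (17.1-fold below WT LSK, adjusted p = 0.0045, and 0.104 with the code).

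Over the erythroid list T2F3 LSK lay below WT GMP by a median of -1.47 on the log2 scale, although 11 of its 25 tested members were higher in WT LSK than in WT GMP. The summed level did not set them apart, at 370.3, 363.3 and 518.2 CPM in T2F3 LSK and 427.3, 455.3 and 429.2 in WT GMP. Against WT GMP 2 members were higher and 4 lower, and against WT LSK 1 was higher and 15 were lower. The 4 lower members were 2 without T2F3 LSK replicate 1 or 2, 0 without T2F3 LSK replicate 3, 1 without WT GMP replicate 2 and 0 with the code. Without T2F3 GMP replicate 1, T2F3 LSK replicate 1 or 2, WT GMP replicate 1 or WT LSK replicate 2 or 3 only 1 member was higher, and without WT GMP replicate 2 none. Itga2b, the platelet integrin CD41, was at 12.4, 11.9 and 27.0 CPM in T2F3 LSK, below both WT GMP (56.8, 75.2 and 91.1) and WT LSK (99.0, 137 and 130). It lay 4.34-fold below WT GMP (adjusted p = 0.00848, and 0.0743 with the code).

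Many genes of the secretory pathway were higher in WT GMP than in WT LSK, and fewer were higher than in T2F3 LSK, a difference that was not tested. Of 24 genes for folding and secretion in the endoplasmic reticulum, 7 were lower than in WT GMP and none higher, with a median log2 difference of -0.65, and 20 were lower in WT LSK with a median of -1.49. Against WT LSK, 4 were higher in T2F3 LSK and none lower. Hyou1, a chaperone, was at 193, 193 and 238 CPM in T2F3 LSK, against 495, 551 and 453 in normal GMP and 137, 184 and 138 in normal LSK (2.4-fold below WT GMP, adjusted p = 0.00524, and 0.0651 with the code). The 7 lower members were 2 without T2F3 LSK replicate 2 or WT GMP replicate 2, 4 without T2F3 LSK replicate 3 and 0 with the code. A pair of metabolic genes was also lower than in WT GMP. Hk3, a hexokinase of myeloid cells, was at 161, 147 and 138 CPM against 625, 480 and 363 (3.29-fold lower, adjusted p = 0.00111). Idh1, the cytosolic isocitrate dehydrogenase, was at 41.3, 29.1 and 32.8 CPM against 117, 103 and 80 (2.91-fold lower, adjusted p = 0.00293). WT LSK had 126, 123 and 112 CPM of Hk3 and 29.7, 19.7 and 16.6 of Idh1.

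Cell cycle genes did not set the 2 groups apart by the test. Of 34 tested, 1 was lower in T2F3 LSK and none higher, near the share over all genes tested (2.9% lower). The median log2 difference was -0.06. In WT LSK 6 were lower than in WT GMP (5.72% of all genes tested), with a median of -0.47. The 1 gene, E2f1, was at 37.0, 39.1 and 34.0 CPM against 108, 70.6 and 47.1 (2.05-fold lower, adjusted p = 0.0462), a call that remained in 2 of the 12 fits that left out 1 library and was lost with the code (0.318). The summed level of the list was 6443 to 6869 CPM in T2F3 LSK, 6811 to 8247 in WT GMP and 5194 to 5383 in WT LSK. Mcm5 and Mcm2, of the helicase that opens DNA for replication, were 1.67-fold and 1.5-fold lower than in WT GMP and did not pass (adjusted p = 0.0867 and 0.106).

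Markers of maturing neutrophils and monocytes were low or near the GMP level. Of 18 neutrophil secondary granule genes 5 were lower than in WT GMP and 1 higher, with a median log2 difference of -2.64, or -2.05 with a member without counts at its bound. Itgam, the Mac-1 chain that the lineage depletion also uses, was at 3.87, 8.18 and 4.36 CPM against 27.2, 29.5 and 33.6 (5.47-fold lower, adjusted p = 0.00246). The 5 lower members were 1 to 3 without T2F3 GMP replicate 1, any T2F3 LSK replicate, or WT GMP replicate 1 or 2, and 1 with the code. Of 22 monocyte and macrophage genes 4 were lower and 2 higher (median -0.13), while 7 were higher than in WT LSK and none lower (median 1.77). Without T2F3 LSK replicate 2 or 3 or WT GMP replicate 1 the 4 lower genes were 2, and the 2 higher genes were 0 to 4 over the fits that left out 1 library and 0 with the code. F13a1, a transglutaminase of monocytes, was at 135, 147 and 22.6 CPM in T2F3 LSK, against 499, 553 and 547 in normal GMP and 45.0, 34.6 and 41.0 in normal LSK. T2F3 LSK replicate 3 was below all WT LSK libraries and replicates 1 and 2 above them. The summed level of the monocyte list was 2266, 2898 and 461.7 CPM in T2F3 LSK and 1811 to 2490 in WT GMP, again with replicate 3 apart.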

How the data were processed

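RNA of sorted bone marrow cells was sequenced after ribosomal RNA depletion, per the labels' protocols. The authors deposited whole-number read counts per Ensembl gene identifier for 12 libraries. The submitters' processing notes name cutadapt 1.2rc2, TopHat2, BWA 0.5.9, Picard, HTSeq and the build mm9, and a strand setting for the counting was found in none of the sources. Reads of overlapping or antisense genes may therefore not be told apart. Of 21497 entries, 19939 matched a gene of GENCODE vM21 by Ensembl gene identifier and 1558 did not.

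Groups were taken from the titles. All 12 libraries (4 groups of 3) entered 1 fit in edgeR 4.0.16 (R 4.3.3) with a term per group, TMM scaling, filterByExpr at a minimum count of 10 (16042 entries kept) and the quasi-likelihood test, with 8 residual degrees of freedom and Benjamini-Hochberg adjustment over all genes tested. CPM were computed with the TMM-scaled library size. Folds against a group without counts use a floor of 3 counts per library. The interval of a count ratio (Socs2) and the floors cover counting error only, while intervals of log2 differences come from the fit and include the spread among libraries. The labels do not say outright that replicates are separate animals, and a p-value here covers no more than the variation among the libraries at hand, which may be technical. Alternatives used DESeq2 1.42.0, limma 3.58.1, other scalings, filters and blocks, and left out libraries. Replicate numbers of T2F3 LSK and WT GMP belong to different animals and were not taken as pairs. LSK and GMP of the same genotype and number may come from the same animal. The main fit ignored this, and the animal entered as a correlated block in limma-voom only.

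The members and the 25 gene lists (513 distinct members) were chosen with earlier results of these data known. Genes named are the sort and lesion genes, the 10 largest rises and falls with groups apart and at least 5 CPM, the 4 members of each list that had the lowest p (fewer where levels were low), the 8 per direction farthest from both WT groups, and the 8 per direction within 0.5 log2 of WT GMP. Chosen after their values were seen were Prtn3, Ctsg, Csf3r, Ifngr1, Hlf, Fgd5, Hmga2, Mcpt8, Procr, Clec12a and Robo4, where the rule did not name them. In data simulated for this comparison (15293 genes), the test recovered 53 of 100 at a true 4-fold change and 5 of 100 at a true 2-fold change, and 2 of 60 calls were of unchanged genes. Only these changed genes differed between T2F3 LSK and WT GMP there, while 1187 passed in the data. No effect of the letter code or of replicate 1 was simulated, so these rates need not hold for the data. Promoters and motifs were read from a RefSeq table on GRCm38.p6.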

Additional observations from a re-analysis of the deposited data

How the results depend on the processing

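For T2F3 LSK against WT GMP (722 genes higher and 465 lower), the counts were 145 and 93 with a block for library code, 468 and 306 with only the 6 libraries compared, 1234 and 769 in DESeq2, 316 and 107 when tested by glmTreat against a 2-fold change, and 446 and 238 without both T2F3 replicate 1 libraries. limma-voom with quality weights gave 1042 and 748. Leaving out 1 library at a time gave 321 to 867 higher and 244 to 577 lower. For T2F3 LSK against WT LSK (834 genes), the count was 18 with the code, 474 with only 6 libraries, 1919 in DESeq2, 1339 in limma-voom with quality weights, 116 by glmTreat, 136 without both T2F3 replicate 1 libraries, 248 without all 4 replicate 1 libraries, and 229 (without T2F3 LSK replicate 1) to 1094 (without WT GMP replicate 1) with 1 library left out. For WT LSK against WT GMP (2100 genes), it was 974, 1188, 3225, 3186 and 581 in the same order of settings, 3387 in limma-voom with the animal as a correlated block, 1296 without both WT replicate 1 libraries, and 1234 (without WT GMP replicate 2) to 2090 with 1 left out. Fewer libraries, a stricter null hypothesis and fewer residual degrees of freedom are part of several of these settings, and otherwise the cause was not tested. Over the genes of the normal step, a 4-fold limit moved the T2F3 LSK medians to -1.92 and 2.93, and a mean of at least 5 CPM moved the second to 1.10. With the replicate number as a block the counts were 721 higher and 524 lower, 907 and 2204. The deviations of same-numbered T2F3 LSK and WT GMP libraries correlated by 0.22, 0.16 and 0.035, and those of differently numbered ones by -0.2 to 0.11. Replicate 1 had the largest share of small noncoding RNAs and unnamed clones in both groups (32.24 and 28.66%). What else same-numbered libraries have in common was not tested. No value reversed. Of 114 named genes that passed against WT GMP, 77 passed in all 12 fits with 1 library left out. Of the 238 genes called with the code, 235 were among the 1187. In the simulated data most 2-fold changes were missed, so a gene that did not pass may still differ by that much.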

Other observations

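Signalling genes of dividing and stimulated cells gave further values. Of 18 immediate early and AP-1 genes none passed between T2F3 LSK and WT GMP (median log2 difference -0.24), 4 were lower in T2F3 LSK than in WT LSK and none higher (median -1.84), and 5 were higher in WT LSK than in WT GMP. Of 17 MAPK feedback genes 1 was higher than in WT GMP and none lower (median -0.37), but 3 were lower without T2F3 LSK replicate 3, 1 without WT GMP replicate 1, and 3 with the replicate number as a block. The higher gene was Dusp5, a phosphatase of ERK kinases, at 74.6, 92.6 and 84.4 CPM in T2F3 LSK and 0, 10.5 and 6.34 in WT GMP (14.8-fold higher, adjusted p = 0.0145, and 0.113 with the code as a term, or 26.3-fold without WT GMP replicate 2). None of 10 G1 cyclin and CDK inhibitor genes passed (median 0.18). Of 13 MHC class I and peptide loading genes 1 was higher and none lower (median 0.29), a count that was 0 without T2F3 LSK replicate 2, without WT GMP replicate 2 and with the code, and 2 without T2F3 LSK replicate 3 or WT GMP replicate 3.

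Of 19 Hox and TALE homeobox genes 3 were higher in T2F3 LSK than in WT GMP and none lower (median 0.70), a count that was 0 without WT GMP replicate 2, 1 without T2F3 LSK replicate 2 and 0 with the code. Hoxa10 was among them, at 2.35, 2.42 and 9.67 CPM against 0.596, 0.694 and 0.291 (9.02-fold higher, adjusted p = 0.0432). That call remained in 3 of the 12 fits that left out 1 library, and was lost with the code (0.171) and with the replicate number as a block (0.0798). Without T2F3 LSK replicate 3 the fold was 4.47 (adjusted p = 0.217). Of 22 megakaryocyte and platelet genes 4 were higher and 3 lower (median 0.13). The 4 were 2 without T2F3 LSK replicate 2 or WT GMP replicate 1 and 1 without WT GMP replicate 2, and with the code none passed in either direction. Of 19 glycolysis genes 4 were lower and none higher (median -0.47), Hk3, Hk2, Gpi1 and Gapdh. The 4 were 2 without any 1 T2F3 LSK replicate or WT GMP replicate 1 or 2, and 1 with the code, where Hk2 (0.16), Gpi1 (0.0906) and Gapdh (0.104) were lost. The Gapdh call remained in 1 of the 12 fits that left out 1 library (adjusted p of up to 0.171 in the others), that of Hk2 in 8 and that of Gpi1 in 11. Of 15 genes of DNA methylation and its oxidation 2 were lower, Tet2 and Idh1 (median -0.19). The Tet2 call remained in 3 of the 12 fits that left out 1 library and was lost with the code (0.0694). Of 23 integrin and homing genes 4 were higher and 4 lower (median -0.10). The 4 higher were 2 without T2F3 LSK replicate 1 or 2 or WT GMP replicate 2 and 1 with the code, where 2 were lower. Itgb7, an integrin chain of gut homing, was at 313, 359 and 113 CPM against 43.4, 41.7 and 61.2 (5.36-fold higher, adjusted p = 0.00409).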
